A study of Rattus norvegicus with 24 samples.

Results

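The 8 genes listed as CC chemokines and a receptor were examined in rat lung: Ccl2, Ccl7, Ccl3, Ccl4, Ccl5, Ccl17, Ccl22 and Ccr2. They were chosen by symbol, and 7 of the 8 were found among the 30043 genes of the count table, while Ccr2 was not analysed here. CC chemokines are small secreted proteins, named for adjacent cysteines near their start, that draw leukocytes out of the blood and through tissue by acting on G protein-coupled receptors. Ccl2 and Ccl7 act on the receptor Ccr2 of inflammatory monocytes. Ccl3, Ccl4 and Ccl5 act on macrophages, monocytes and T cells, with Ccr1 among the receptors of Ccl3 and Ccl5, and Ccl17 and Ccl22 act on Ccr4 of T helper and regulatory T cells. In the dust-exposed lung, alveolar macrophages and epithelial cells are well-known sources of these proteins.

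The lungs came from 24 male Fischer 344 rats (F344/DuCrl), bought at 3 months of age, and each group held 6 animals. The air group breathed air for 29 weeks. The silica group breathed Min-U-Sil5 crystalline silica at 15 mg/m3 for 6 hours a day on 5 days in week 3 and air in all other weeks. The smoke group breathed cigarette smoke for 3 hours on each Tuesday and Friday, at 40 mg/m3 in week 1 and 80 mg/m3 from week 2, with air in week 3. The combined group received the same silica in week 3 and the same smoke schedule around it, starting at 45 mg/m3 in week 1. All 4 groups shared strain, sex and whole-body exposure, and RNA came from 1 piece of each lung. In such bulk tissue, fewer cells of a type and less RNA per cell cannot be told apart.

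Libraries held 21629 (smoke 2) to 4687805 counts, with 280484 in silica 4 and at least 1084815 in the other 22. Values are counts per 1000000 (CPM) of the library total of tested genes, scaled by TMM, and 1 count in smoke 2 is worth 53.0 CPM, so smoke levels are given from 5 libraries, while the statistical model kept all 24. Lung markers such as surfactant genes had counts in every group, with a summed level of 15120 to 22424 CPM in air libraries and 1589 CPM in smoke 2. The library labelled silica 1 had Ccl2 at 3.20 CPM and summed neutrophil markers at 126 CPM, against 25.1 to 49.8 and 475 to 679 CPM in silica 2 to 6. The library labelled smoke 1 had 36.4 and 513 CPM, where smoke 3 to 6 had 1.84 to 7.14 and 133 to 197 CPM. Silica 1 thus lay within the air range, and smoke 1 within the range of silica 2 to 6, in both measures. Both libraries go against their labels in this, and whether the labels were exchanged was not tested. Labels were kept as deposited, so the silica and smoke values hold for the libraries so labelled. Leaving out silica 1, smoke 1 and smoke 2 together was a choice made after seeing the data, and its values stand beside the results.

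Ccl2 and Ccl7, the monocyte attractants, rose most among the tested members in the silica and combined groups, though not in the library labelled silica 1. In the air group Ccl2 lay between 0.526 and 5.24 CPM, with a median of 2.04 CPM. In the silica group it lay between 3.20 and 49.8 CPM with a median of 38.0 CPM, and in the combined group between 44.9 and 73.2 CPM with a median of 63.5 CPM. The 5 smoke libraries lay between 1.84 and 36.4 CPM, with a median of 7.13 CPM. Every combined library was above every air library, and silica overlapped air only through silica 1. The mean was 2.51 ± 1.76 CPM (SD, n = 6) in air, 33.4 ± 17.1 CPM in silica and 61.3 ± 10.2 CPM in combined.

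**Figure D1:**
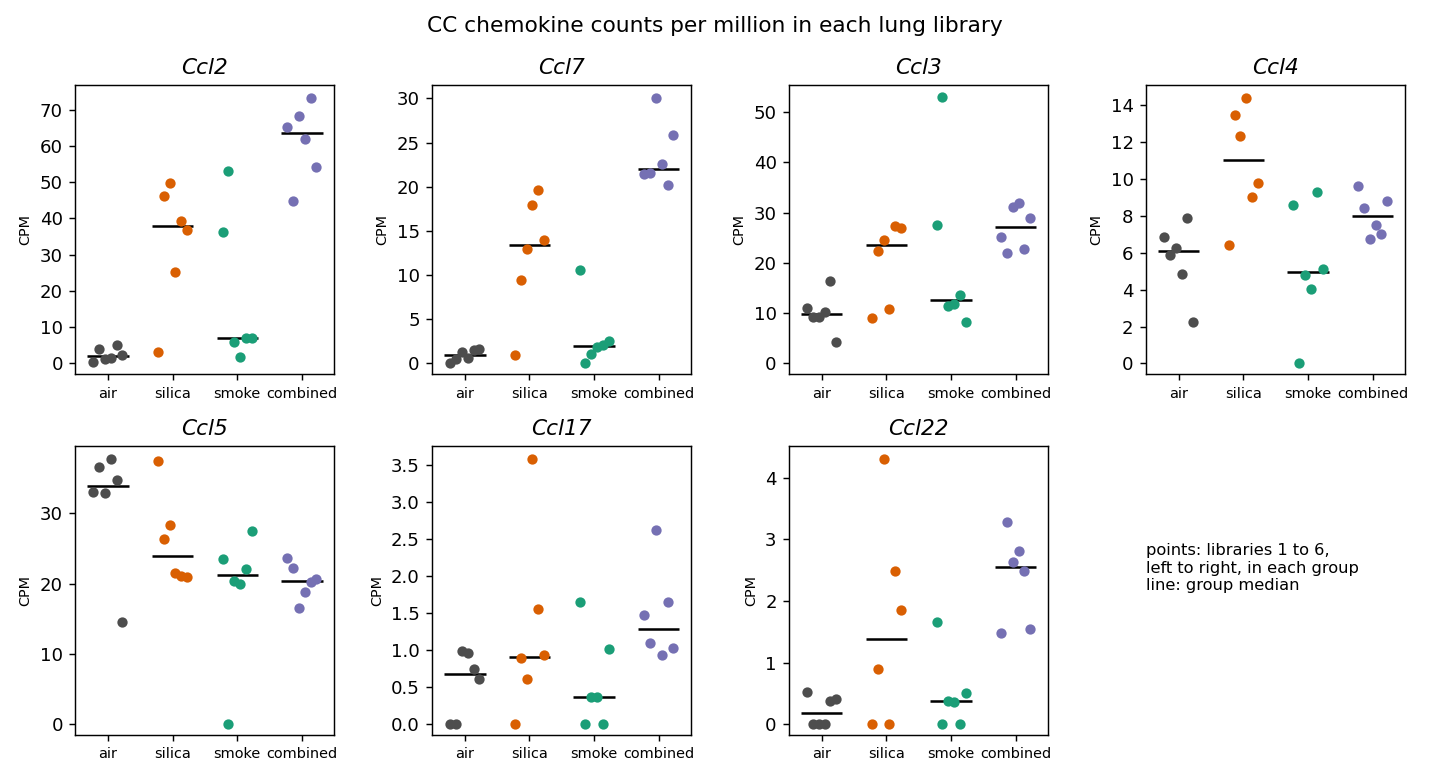
Counts per 1000000 (CPM, vertical axes, linear and different for each gene) of the 7 chemokines in each library, with the 4 groups on the horizontal axes, points for libraries 1 to 6 from left to right and lines at group medians over 6 libraries. The 6 combined libraries sit between 44.9 and 73.2 CPM for Ccl2, above all air libraries, while silica 1 sits with air and smoke 1 with silica for Ccl2 and Ccl7. The point of smoke 2 at 53.0 CPM for Ccl2 and for Ccl3 is 1 count.

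Ccl7, which lies beside Ccl2 on rat chromosome 10 in RefSeq, followed the same order. It lay between 0 and 1.64 CPM in air, with a median of 0.981 CPM, and rested there on 19 counts in all. Silica libraries lay between 0.914 and 19.6 CPM with a median of 13.4 CPM, combined libraries between 20.3 and 30.0 CPM with a median of 22.0 CPM, and the 5 smoke libraries between 1.11 and 10.6 CPM with a median of 2.14 CPM. Every combined library lay above every air library, as for 6.37% of all genes, and above every silica library, as for 0.743%. The lowest combined library, at 20.3 CPM, was close to the highest silica library, at 19.6 CPM. The comparison of combined with silica was not called for Ccl7 (edgeR adjusted p = 0.210). Ccl7 counts were 0.432 of Ccl2 counts in air (19 counts of Ccl7), 0.352 in silica (142 counts), 0.308 in smoke (48 counts) and 0.386 in combined (320 counts), and the difference between these proportions was not tested. The smoke proportion leaned on smoke 1, which gave 32 of the 48 Ccl7 and 110 of the 156 Ccl2 counts.

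The promoter window of Ccl7 is printed because it was among the 3 of 7 member windows available, and none was available for Ccl2, Ccl3, Ccl4 or Ccl5. The Ccl7 window covers 250 bases before the RefSeq start and 50 after it in assembly GRCr8 (chr10:67513845-67514144, plus strand). Capitals mark matches to motifs searched on both strands, namely AP-1 as TGANTCA, STAT as TTCNNNGAA, STAT6 as the same letters with 1 more N in the middle, and NF-kB as GGG, any 2 bases, TT, any base and CC.
Ccl7: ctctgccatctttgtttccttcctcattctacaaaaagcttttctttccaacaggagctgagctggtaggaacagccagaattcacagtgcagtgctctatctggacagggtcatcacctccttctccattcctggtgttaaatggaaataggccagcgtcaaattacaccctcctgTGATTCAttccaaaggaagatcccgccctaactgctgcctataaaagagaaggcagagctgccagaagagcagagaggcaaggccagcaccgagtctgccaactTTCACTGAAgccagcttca
The capitals are 1 AP-1 match at -73 to -67 from the start, a motif held by 7.33% of all 33469 windows, and 1 STAT match after the start, held by 8.87%. The NF-kB letters, held by 5% of windows, are not in this window.

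**Figure D2:**
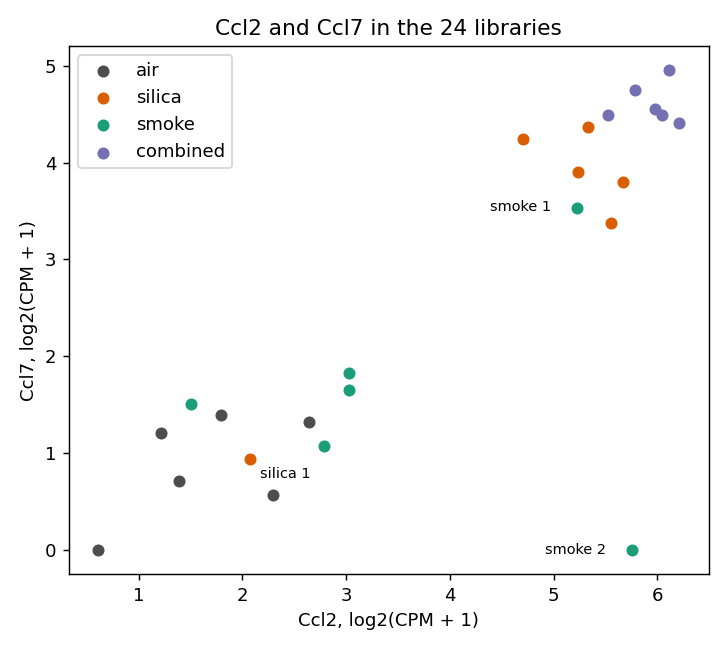
Each point is 1 of the 24 libraries, coloured by group, with Ccl2 on the horizontal and Ccl7 on the vertical axis, both as log2(CPM + 1). Combined libraries and all silica libraries but silica 1 lie at the upper right together with smoke 1, air libraries, smoke 3 to 6 and silica 1 lie at the lower left, and smoke 2, with 1 count of Ccl2 and 0 of Ccl7, lies apart.

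The comparisons of silica, smoke and combined exposure with air share the 6 air libraries, so they are not independent of each other. Silica against air asked what the dust alone changed. Ccl2 rose by 3.75 ± 0.54 on the log2 scale (standard error, edgeR adjusted p = 3.21e-04, n = 6 and 6), and Ccl7 by 3.42 ± 0.52 (edgeR adjusted p = 4.47e-04). Ccl3 and Ccl4, which recruit macrophages and T cells and neighbour each other on chromosome 10, rose by 1.15 ± 0.28 (edgeR adjusted p = 0.0225) and 0.92 ± 0.25 (edgeR adjusted p = 0.0410). Ccl5, the T cell and monocyte attractant also called RANTES, stood at -0.23 ± 0.18 (edgeR adjusted p = 0.540). Of the 7 members 5 passed the filter on low counts, and 4 of these 5 were called higher, where 2.15% of the 13322 genes tested were called higher. The median log2 value of the 5 was 1.15, against -0.00 over all genes tested. Ccl2 and Ccl7 passed that filter through the exposed groups: its level of 10 counts at the median depth was reached by 1 air library for Ccl2 and 0 for Ccl7, against 5 silica and 6 combined libraries for each. The count of called members is therefore a description only.

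Without silica 1, smoke 1 and smoke 2 the same 4 members were called after silica, with Ccl2 at 4.02, Ccl7 at 3.69, Ccl3 at 1.32 and Ccl4 at 1.03. Of all genes, 5.96% were then called higher. With limma voom none of the 5 was called (Ccl2 3.47 with adjusted p = 0.117, Ccl7 3.11 with 0.122, Ccl3 1.26 with 0.0569 and Ccl4 1.09 with 0.0530). With voom quality weights all 5 were called, Ccl5 as lower (-0.46, adjusted p = 0.0398) and the others as higher. Over all genes tested, 83 were called higher with limma voom, 148 with DESeq2 and 577 with voom quality weights, against 287 with edgeR. DESeq2 called Ccl2 and Ccl7 alone, with Ccl3 at 1.06 (adjusted p = 0.0745) and Ccl4 at 0.90 (0.209), and with only the air and silica libraries Ccl3 stood at 1.14 (edgeR adjusted p = 0.0776) and Ccl4 at 0.93 (0.119), while Ccl7 fell under the low-count filter and was not tested. The call of Ccl3 was also lost without silica 2 (1.14, edgeR adjusted p = 0.0522), silica 3 (1.12, 0.0541), silica 5 (1.05, 0.0979) or silica 6 (1.07, 0.0729). That of Ccl4 was lost without air 2, 3, 4 or 6 (log2 0.69 to 0.97) or any of silica 2 to 6 (0.81 to 0.98), with adjusted p from 0.0504 to 0.119.

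Most neutrophil markers tested, some macrophage markers and 1 monocyte marker were called higher after silica. Summed over 8 neutrophil markers, silica libraries held 126 to 679 CPM and air libraries 86.7 to 152 CPM. Of 6 neutrophil markers tested 4 were higher after silica (median log2 1.31), beside 2.15% of all genes. Of 9 monocyte markers 1 was higher, the integrin subunit Itgam at 1.19 ± 0.19 (list median log2 0.14), and the summed level was 444 to 566 CPM against 421 to 440 CPM. Of 11 macrophage markers 3 were higher (list median log2 0.20), and the summed level was 605 to 972 CPM against 496 to 878 CPM. Of 8 dendritic cell markers 0 were higher, with summed levels of 153 to 248 CPM against 157 to 187 CPM. All these shares stand beside the same 2.15% of all genes. In each of these lists silica 1 had the lowest silica sum. Without it macrophage sums were 810 to 972 CPM and dendritic cell sums 212 to 248 CPM. Among the defining markers, Mpo of neutrophil granules was at 0 in silica, smoke and combined libraries, and the macrophage receptor Marco was at 0 in air libraries. The part of these cells in the chemokine result was not tested.

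Smoke against air asked what smoke alone changed, and no member passed the test. Ccl2 stood at 2.32 ± 0.63 (edgeR adjusted p = 0.214), Ccl7 at 1.84 ± 0.63 (0.339), Ccl3 at 0.63 ± 0.30 (0.577), Ccl4 at 0.20 ± 0.28 (0.906) and Ccl5 at -0.46 ± 0.19 (0.465). With edgeR 0 of the 5 were called, beside 0.15% of all genes. An unadjusted p under 0.05 was held by 4 of the 5, and by 1105 of the 13322 genes tested. DESeq2 and limma voom also called 0, and voom with quality weights called 1, Ccl5 at -0.60 (adjusted p = 0.0328). The values leaned on smoke 1: without it Ccl2 stood at 1.07 (edgeR adjusted p = 0.761) and Ccl7 at 0.76 (0.863). Without silica 1, smoke 1 and smoke 2 they stood at 1.04 and 0.76, with Ccl3 at 0.20 and Ccl4 at 0.03. Ccl2 passed without silica 1 (2.32, 0.0463) and Ccl5 without air 6 (-0.64, 0.0285).

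Silica together with smoke, compared with air, gave the largest values of Ccl2, Ccl7 and Ccl3 among the comparisons with air in the fit. Ccl2 rose by 4.59 ± 0.50 (edgeR adjusted p = 5.32e-07) and Ccl7 by 4.41 ± 0.47 (3.60e-07). Ccl3 lay between 21.9 and 31.9 CPM (median 27.0 CPM) in combined libraries and between 4.30 and 16.5 CPM (median 9.80 CPM) in air, with no overlap, and rose by 1.45 ± 0.27 (edgeR adjusted p = 2.89e-04). Silica libraries spanned 9.14 to 27.4 CPM for Ccl3 (median 23.5 CPM), and the 5 smoke libraries 8.15 to 27.4 CPM (median 11.8 CPM), the highest being smoke 1. Of the 5 tested members 3 were higher, beside 11.6% of all genes, and 1 was lower, beside 10.8%. Ccl2 and Ccl7 passed the low-count filter through the exposed groups, so the counts of members given here are descriptions only. Ccl2, Ccl7 and Ccl3 had all 6 combined libraries above all 6 air libraries, as had 6.37% of all genes. Each of the 3 kept its call with any 1 library removed, and they stood at 4.57, 4.39 and 1.44 without silica 1, smoke 1 and smoke 2.

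Ccl4 and Ccl5 behaved otherwise. Ccl4 lay between 6.75 and 9.62 CPM in combined libraries (median 7.95 CPM), between 6.39 and 14.4 CPM in silica (median 11.03 CPM) and between 2.25 and 7.85 CPM in air (median 6.06 CPM). The 14.4 CPM was 4 counts in silica 4, a library of 280484 counts. The 5 smoke libraries lay between 4.06 and 9.28 CPM (median 5.09 CPM), and all groups overlapped air. Its difference between combined and air was 0.57 ± 0.25 (edgeR adjusted p = 0.105), and 0.81 with limma voom (adjusted p = 0.0484). Counts of Ccl4 were 0.552 of those of Ccl3 in air (91 of 165), 0.456 in silica (118 of 259), 0.401 in smoke (73 of 182) and 0.306 in combined (109 of 356), and the difference between these proportions was not tested. The smoke proportion leaned on smoke 1, which gave 26 of the 73 Ccl4 and 83 of the 182 Ccl3 counts.

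Ccl5 was the member that fell. Air libraries 1 to 5 lay between 32.9 and 37.8 CPM and air 6 at 14.5 CPM, while combined libraries lay between 16.5 and 23.7 CPM with a median of 20.5 CPM. Silica libraries lay between 20.9 and 37.5 CPM (median 23.96 CPM), the highest being silica 1, and the 5 smoke libraries between 19.9 and 27.5 CPM (median 22.1 CPM). The combined group overlapped air only through air 6. Ccl5 fell by 0.59 with combined exposure (standard error 0.18, edgeR adjusted p = 0.0171), a call lost without combined 3 (-0.53, 0.0514), and stood at -0.61 without silica 1, smoke 1 and smoke 2. Without these 3 and air 6 it stood at -0.77 with combined exposure, -0.56 after silica (edgeR adjusted p = 0.00251) and -0.66 after smoke (0.00785), the latter pair passing only there, with voom quality weights or, for smoke, without air 6. T and NK cells are known sources of Ccl5, and of 10 of their markers tested 0 were called with edgeR in any of the comparisons. Their summed level was 154 to 235 CPM in air and 151 to 206 CPM in combined libraries. Over all genes tested, 11.6% were called higher and 10.8% lower with combined exposure, 0.15% with smoke and 0% in the interaction. The part of T and NK cells in the Ccl5 values was not tested.

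**Figure D3:**
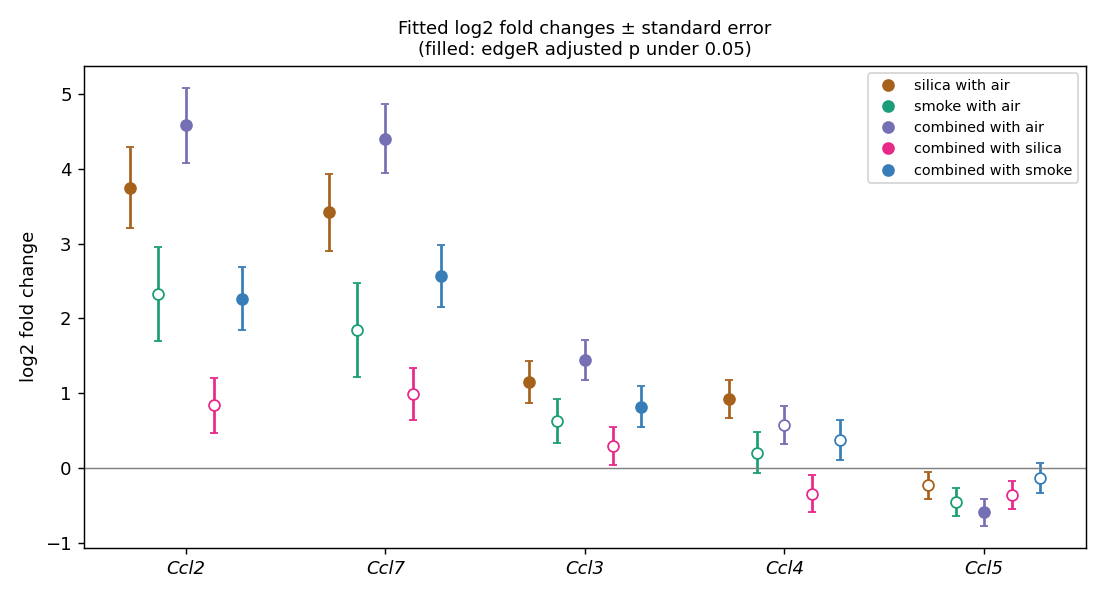
Fitted log2 fold changes (vertical axis) with standard errors of the 5 tested chemokines (horizontal axis) in 5 comparisons, marked by colour, with filled points for edgeR adjusted p under 0.05. Ccl2 and Ccl7 stand highest, at 4.59 and 4.41 for combined with air, and Ccl5 stands below 0 in all 5.

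Adding smoke to silica was tested by setting the combined group against silica. Ccl7 stood at 0.99 ± 0.34 (edgeR adjusted p = 0.210) although all 6 combined libraries lay above all 6 silica libraries, as did those of 0.743% of all genes. Ccl2 stood at 0.84 ± 0.36 (0.321), Ccl3 at 0.29 ± 0.26 (0.670), Ccl4 at -0.35 ± 0.25 (0.581) and Ccl5 at -0.36 ± 0.19 (0.425). With edgeR 0 of 5 members were called, beside 0.248% of all genes, and DESeq2 and both voom fits also called 0. An unadjusted p under 0.05 was held by 2 members, and by 1713 of the 13322 genes tested. Without silica 1 alone Ccl2 stood at 0.56 and Ccl7 at 0.71.

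Adding silica to smoke, the combined group against smoke, moved Ccl2 by 2.26 ± 0.42 (edgeR adjusted p = 0.00113), Ccl7 by 2.56 ± 0.41 (4.07e-04) and Ccl3 by 0.82 ± 0.27 (0.0449). These 3 of 5 were called higher, beside 7.34% of all genes. Ccl7 reached the level of the low-count filter in 1 smoke library and 6 combined libraries, so the count is a description only. Ccl4 stood at 0.37 ± 0.27 (0.386) and Ccl5 at -0.13 ± 0.20 (0.712). Without smoke 1 Ccl2 stood at 3.52 and Ccl7 at 3.66, and without silica 1, smoke 1 and smoke 2 at 3.54 and 3.64, with Ccl3 at 1.23. The Ccl3 call was lost with DESeq2 (0.83, adjusted p = 0.1104). It was also lost without air 4, silica 2, any of smoke 3 to 6 or combined 1, 3, 4 or 6, where its log2 value ran from 0.69 to 0.84 and its edgeR adjusted p from 0.0505 to 0.123.

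Whether silica and smoke together exceeded the sum of their log2 effects was asked by the interaction. Ccl2 stood at -1.49 ± 0.74 (edgeR adjusted p = 0.692), Ccl7 at -0.86 ± 0.71 (0.836), Ccl3 at -0.33 ± 0.39 (0.904), Ccl4 at -0.55 ± 0.37 (0.779) and Ccl5 at 0.10 ± 0.27 (0.990). With edgeR 0 of 5 members were called, beside 0% of all genes, and 0 members and 977 of all genes had an unadjusted p under 0.05. DESeq2 and both voom fits also called 0 members. Without smoke 1 the value of Ccl2 was -0.24 and that of Ccl7 0.24, and without silica 1, smoke 1 and smoke 2 they were -0.48 and -0.05.

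Ccl17 and Ccl22, the ligands of Ccr4, were near the limit of detection and too low for the filter. Ccl22 had 4 counts in the air group, 21 in silica, 8 in smoke and 32 in combined. It lay between 0 and 0.526 CPM in air, 0 and 4.30 CPM in silica (median 1.38 CPM) and 1.48 and 3.29 CPM in combined (median 2.55 CPM), and all combined libraries lay above all air libraries. On mean log2(CPM + 1), combined exceeded air by 1.46 (two-sided exact permutation p = 0.00216, the smallest that 6 against 6 allows) and smoke by 1.24 (exact permutation p = 0.00649). The differences of silica from air (0.85, exact permutation p = 0.0974) and of combined from silica (0.62, exact permutation p = 0.195) did not pass. The former passed without silica 1 or silica 4 (1.07, exact permutation p = 0.0281 each), and the latter without silica 3 (0.88, exact permutation p = 0.0455). These p-values are unadjusted over 10 such tests. With every gene tested by edgeR, Ccl22 rose by 3.11 with combined exposure (adjusted p = 7.05e-04) and by 2.71 after silica (0.0272), but its difference of combined from smoke did not pass (1.75, 0.0731). These fitted values depend on few counts.

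Ccl17 had 11 counts in air, 11 in silica, 9 in smoke and 21 in combined. Its libraries lay between 0 and 0.988 CPM in air and between 0.939 and 2.63 CPM in combined, overlapping slightly. Silica libraries lay between 0 and 3.59 CPM, the highest being 1 count in silica 4. Combined exceeded air by 0.69 (exact permutation p = 0.00649) and smoke by 0.72 (exact permutation p = 0.0281), the latter lost without smoke 2 or smoke 5 (0.60, exact permutation p = 0.0584 each) or combined 3 (0.60, exact permutation p = 0.0606). Silica and air differed by 0.44 (exact permutation p = 0.258), smoke and air by -0.02 (exact permutation p = 0.948) and combined and silica by 0.25 (exact permutation p = 0.459). With every gene tested by edgeR neither the difference of combined from air (1.25, adjusted p = 0.154) nor that of combined from smoke (0.98, 0.393) passed. A level of 3 counts equals 0.615 to 1.58 CPM in air libraries and 1.10 to 2.82 CPM in combined libraries, so the levels of Ccl17 lay near that of a few counts. The same 3 counts equal 10.8 CPM in silica 4 and 159 CPM in smoke 2, and the exact tests kept both libraries.

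Both genes lie in 1 cluster on chromosome 19 with the chemokine Cx3cl1 between them, per RefSeq. Their windows, which were also available, are on the minus strand of GRCr8, at chr19:10209846-10210145 for Ccl17 and chr19:10270310-10270609 for Ccl22. Capitals mark the same motifs as for Ccl7.
Ccl17: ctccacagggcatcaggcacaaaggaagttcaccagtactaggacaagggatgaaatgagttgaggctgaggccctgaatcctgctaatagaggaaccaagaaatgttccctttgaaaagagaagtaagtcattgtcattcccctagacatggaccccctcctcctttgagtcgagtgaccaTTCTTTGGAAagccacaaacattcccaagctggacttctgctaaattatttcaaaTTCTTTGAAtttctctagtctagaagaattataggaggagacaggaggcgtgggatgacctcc
Ccl22: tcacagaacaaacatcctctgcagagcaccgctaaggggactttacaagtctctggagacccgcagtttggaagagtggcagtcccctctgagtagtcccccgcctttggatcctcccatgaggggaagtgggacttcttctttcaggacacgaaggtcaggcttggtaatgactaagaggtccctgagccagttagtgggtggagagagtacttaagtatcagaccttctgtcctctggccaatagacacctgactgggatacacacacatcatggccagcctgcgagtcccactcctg
Ccl17 holds 1 match of the STAT6 letters, present in 7.28% of all windows, and 1 of the STAT letters. None of the 4 motifs is in the Ccl22 window. The cytokines Il4 and Il13, which are known to act through STAT6, had 0 counts in air, silica and combined libraries, and Il13 also in smoke.

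Among the other receptors, Ccr1 rose with combined exposure, while Ackr4 and Ccrl2 fell. Of 12 listed CC receptors 7 were tested, and with combined exposure 1 was higher, beside 11.6% of all genes, and 2 were lower, beside 10.8% (median log2 -0.12, against -0.01 over all genes). The share called higher was near that of all genes. Ccr1, a receptor of Ccl3 and Ccl5, lay between 29.3 and 38.5 CPM in combined and between 14.1 and 26.4 CPM in air, with no overlap, and rose by 0.91 ± 0.17 (edgeR adjusted p = 4.08e-04). Ackr4, a scavenger of the lymph node chemokines, fell by 0.95 (standard error 0.21, edgeR adjusted p = 0.00131), and Ccrl2, a receptor-like binder of chemerin, fell by 0.50 (standard error 0.13, edgeR adjusted p = 0.00760, but 0.0590 with DESeq2). After silica Ccr1 alone was called, at 0.66 ± 0.18 (edgeR adjusted p = 0.0426), a call lost without air 1, 3, 4 or 6, any of silica 2 to 6 or combined 1 (log2 0.58 to 0.71, edgeR adjusted p from 0.0501 to 0.143), with DESeq2 (0.65, 0.147) or with limma voom (0.61, 0.0675). After smoke 0 of 7 were called with edgeR. Ccr4 had 6 to 13 counts per group and was not tested.

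**Figure D4:**
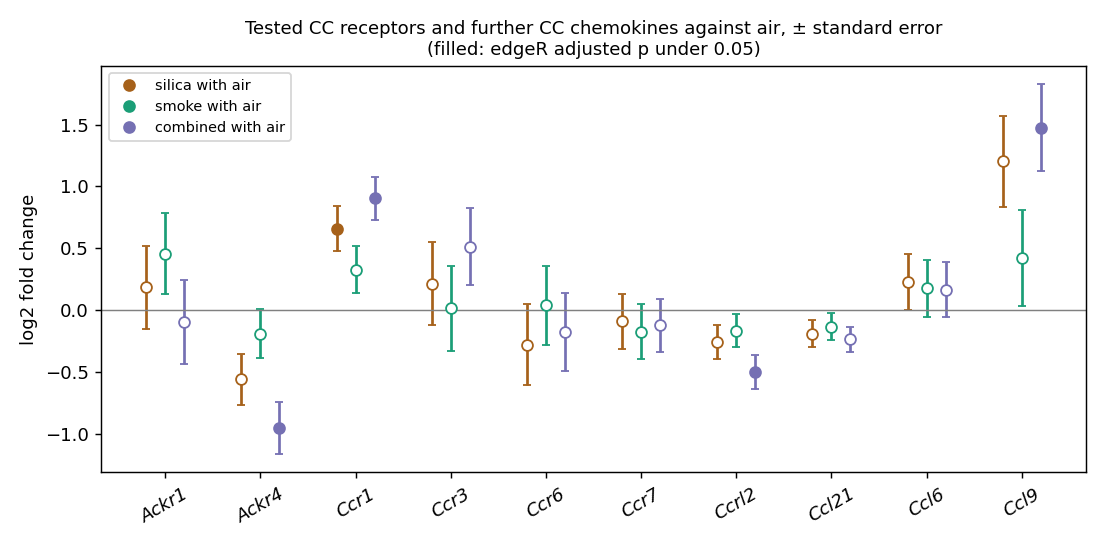
Log2 fold changes against air (vertical axis) with standard errors of the 7 tested CC receptors and 3 further CC chemokines (horizontal axis), coloured by comparison, with filled points for edgeR adjusted p under 0.05. With combined exposure Ccr1 (0.91) and Ccl9 (1.47) stand above 0 and Ackr4 (-0.95) and Ccrl2 (-0.50) below.

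Other CC chemokines were mostly low. Of 14 listed 13 were found and 3 tested. Ccl9, a myeloid chemokine of rodents, rose by 1.47 ± 0.35 with combined exposure (edgeR adjusted p = 0.00286), from 5.94 to 43.4 CPM in air to 49.7 to 72.8 CPM with no overlap, and stood at 1.20 ± 0.37 after silica (0.0643) and 0.42 ± 0.39 after smoke (0.842). Ccl6, expressed by macrophages, stood at 0.17 ± 0.22 and Ccl21, of lymphatic vessels, at -0.24 ± 0.10 with combined exposure, neither passing. Ccl1, a ligand of Ccr8 chosen after its values were seen, had 0 counts in all 12 air and smoke libraries, 7 counts in 4 silica libraries and 13 counts over all 6 combined libraries. It was too low to be tested, and 3 counts equal 0.615 to 1.58 CPM in air libraries.

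Among 12 cytokines known to induce these chemokines, 5 were tested. Of these, 2 were called higher with combined exposure, beside 11.6% of all genes, and 1 lower, beside 10.8% (list median log2 0.12). The silica group had 2 of 5 called higher, beside 2.15% of all genes (list median log2 0.26). Il1b, the inflammasome cytokine, rose by 0.91 ± 0.18 after silica (edgeR adjusted p = 0.00430) and by 0.80 ± 0.17 with combined exposure (0.00117), and Csf1, the macrophage growth factor, by 0.73 ± 0.14 (0.00522) and 0.95 ± 0.14 (1.77e-05). The alarmin Il33 fell by 0.39 with combined exposure (edgeR adjusted p = 0.0161), a call lost without combined 6 (-0.32, 0.0583) or with limma voom (-0.39, 0.0954). With smoke 0 of the 5 were called with edgeR, beside 0.15% of all genes. Summed over the 12 cytokines, air libraries held 394 to 461 CPM, silica libraries 403 to 513 CPM and combined libraries 345 to 458 CPM. The part of these cytokines in the chemokine values was not tested.

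Genes of chemokine receptor signalling, which link the receptors to movement of the cell, were followed too. Of 14 tested 8 were higher with combined exposure, beside 11.6% of all genes, and 0 lower, beside 10.8% (median log2 0.36), among them Vav1 at 0.89 ± 0.13 and Rac2 at 0.65 ± 0.12, which drive the cytoskeleton of moving leukocytes, Plcb2 at 0.95 ± 0.14 and the kinase subunit Pik3r5 at 0.55 ± 0.12. After silica 1 of 14 was higher, beside 2.15% of all genes, namely Rgs1, which dampens receptor signals, at 1.07 ± 0.24 (edgeR adjusted p = 0.0158), a call lost without silica 5 (0.91, 0.0854) or silica 6 (1.02, 0.0512) and with limma voom (adjusted p = 0.0580). Without silica 1, smoke 1 and smoke 2 the counts were 8 with combined exposure and 6 after silica, where 5.96% of all genes were then called higher. After smoke 0 of 14 were called with edgeR. In the combined group summed markers stood at 389 to 846 CPM for neutrophils, 469 to 590 CPM for monocytes, 863 to 992 CPM for macrophages and 218 to 279 CPM for dendritic cells, against 86.7 to 152, 421 to 440, 496 to 878 and 157 to 187 CPM in air. Called higher there were 5 of 6 neutrophil, 2 of 9 monocyte, 6 of 11 macrophage and 4 of 8 dendritic cell markers tested, beside 11.6% of all genes, and 1 macrophage marker was called lower. Their part in these values was not tested.

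Likeness was described over the 22 libraries of at least 1000000 counts, which share group differences and depth. The genes most like Ccl2 by Spearman rho were C3, a complement component (0.958), Ehf, an epithelial transcription factor (0.944), and Chia, an acidic chitinase (0.937). Those most like Ccl7 were the chitinase-like Chi3l1 (0.947), Chia (0.938) and Bpifb1, an airway secretory protein (0.937). Ccl3 was closest to Rmdn2 (0.928), Cpm (0.923) and Ank3 (0.918), Ccl4 to Igsf6 (0.859), Plp2 (0.844) and Ugp2 (0.825), and Ccl5 to Eef1a1 (0.858), Tmem140 (0.837) and Cyp4b1 (0.797). Among the members the highest rho was between Ccl2 and Ccl7 (0.894) and the lowest between Ccl5 and Ccl7 (-0.606).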

How the data were processed

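Whole-number read counts of each gene in 24 libraries of rat lung RNA, without normalization, are what the authors deposited. Tools named in the submitters' processing notes are HTSeq 0.11.2, SAMtools 1.8, Cufflinks, HISAT2 2.1.0, Trimmomatic 0.35 and bcl2fastq 2.19. Per the labels' protocols, ribosomal RNA was removed and the kit kept strand. Genome build, annotation and strand setting are not stated in the labels, so overlapping and antisense genes are uncertain.

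Of 30069 lines 26 were repeats and were removed. The test was edgeR 4.0.16 in R 4.3.3: filterByExpr with a minimum count of 10 (13322 genes kept), TMM, and 1 quasi-likelihood fit with a mean per group over all 24 libraries (20 residual degrees of freedom). Tests were two-sided, and a Benjamini-Hochberg adjusted p under 0.05 over all tested genes was called. Standard errors were taken as |log2 fold change| over the square root of F. Members below the filter were compared by exact permutation tests on log2(CPM + 1). Alternatives were RLE scaling, DESeq2 1.42.0, limma 3.58.1 voom with and without quality weights, no filter, only the libraries compared, and each library left out. Each of 60 pairs of libraries within a group differed by more than counting noise (chi-square divided by its degrees of freedom at least 1.73), so none was merged. Replicates were numbered in order of deposit.

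Members, lists and named genes (all members, up to 4 called genes per list and comparison, and the 3 genes most like each tested member) were chosen with earlier results of these data known. The 13 further lists held 137 entries, of which 133 were found. Some lists are not described with the results. In these, edgeR called 1 of 5 B and plasma cell markers higher and 1 of 2 eosinophil and mast cell markers lower with combined exposure. Of 10 lung tissue markers 1 was higher and 5 were lower there, beside 11.6% of all genes higher and 10.8% lower. Of 6 erythroid markers 2 were called higher with smoke, beside 0.15% of all genes called in either direction. The erythroid calls rested on smoke 2, where haemoglobin genes held 53.7% of counts: without it Hbb stood at 0.55 (edgeR adjusted p = 0.621) and Hba1 at 0.39 (0.766). Promoter windows (3 of 7 members) and gene order come from RefSeq, assembly GRCr8.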

Additional observations from a re-analysis of the deposited data

Results flagged for a closer look

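In 28 combinations of member and group, 4 libraries stood far from the other 5 of their group by Dixon's criterion. For normally distributed values chance flags about 1 in 20. That rate need not hold for low counts in libraries of unequal depth, so the number flagged is a description only. For Ccl7, smoke 1 stood at 10.6 CPM where the next smoke library stood at 2.55 CPM. For Ccl22, smoke 1 stood at 1.65 CPM where the next stood at 0.509 CPM. For Ccl5, air 6 stood at 14.5 CPM where the next air library stood at 32.9 CPM. For Ccl5, smoke 2 stood at 0 CPM where the next smoke library stood at 19.9 CPM, and 3 counts in smoke 2 equal 159 CPM. The part of depth and labelling in these values was not tested.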

How the results depend on the processing

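No paired analysis was possible because replicate numbers were given in order of deposit and pair no animals. After silica the 4 members called by edgeR became 2 with DESeq2, 0 with limma voom and 1 of 4 with only the 12 libraries compared, where Ccl7 was not tested, and ran from 2 to 4 with single libraries left out. Over all genes tested, the 287 called higher after silica became 148, 83 and 80 in the same settings. They ran from 111 to 716 with single libraries left out. With smoke the 0 called became 1 (Ccl5) with voom quality weights and 1 with air 6, silica 1, smoke 1 and smoke 2 all removed (added once the data had been seen), and ran from 0 to 1 with single libraries left out. Over all genes, 13 higher and 7 lower with smoke became 28 and 44 with voom quality weights. They became 39 and 59 with the 4 libraries removed. With single libraries left out the counts ran from 3 to 4 for combined with air (5 with limma voom), 2 to 3 for combined with smoke, and stayed at 0 for combined with silica and the interaction. For combined with air, limma voom called 1384 of all genes higher and 1072 lower, against 1546 and 1441 with edgeR. Without those 4 libraries the smoke values of Ccl3 and Ccl4 turned to -0.0176 and -0.21, and the Ccl3 interaction to 0.11. Signs also turned without smoke 1 for the interactions of Ccl3 (range -0.54 to 0.0782) and Ccl7 (-1.16 to 0.24), without air 6 for Ccl4 with smoke (-0.0215 to 0.34), and without air 3, 4 or 5 or smoke 2 or 5 for Ccl17 with smoke (-0.19 to 0.0882). The cause was not tested. Depth limits Ccl17 and Ccl22 in every library.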
